A study of Mus musculus with 12 samples.

Results

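The genes of glucose uptake, glycolysis and pyruvate oxidation were examined in total RNA-seq of brown adipose tissue from C57BL/6N mice. The members were chosen by name and number 42 of the genes in the count table. The symbol Aldoa stands on 2 rows, so 43 of 61210 rows were described, and all 43 passed the filter on low counts that left 16737 rows for testing. The tissue is abbreviated iBAT, which the study's text spells out as interscapular and the deposited design as inguinal. All mice were wild type and 20 weeks old, received chow up to 8 weeks of age, and were then kept on the control diet (NCD) or on a high-fat diet (HFD) for 12 weeks. Within each diet, one group stayed at room temperature (rt in the sample titles) and the other was kept at 4 °C for 24 h, which gave 4 groups of 3 libraries. The labels do not say that the 3 libraries of a group came from separate mice, so p-values measure the spread between libraries.

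Glucose enters brown adipocytes through GLUT transporters, is trapped by hexokinase and is split by glycolysis into pyruvate. Pyruvate is either reduced to lactate and exported, or carried into mitochondria and turned into acetyl-CoA by the pyruvate dehydrogenase complex (PDH), which kinases switch off and phosphatases switch on. Cold activates glucose uptake in this tissue, and the pentose phosphate pathway draws on glucose 6-phosphate for NADPH and ribose.

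Libraries held 15136861 to 46740702 counts. Levels are given as normalised CPM, which edgeR computes from the library total times a trimmed mean of M-values (TMM) factor, with replicates 1, 2 and 3 in this order. The TMM factors were 0.896 to 0.952 on NCD and 1.03 to 1.15 on HFD. Differences are log2 fold changes with their standard error from edgeR's quasi-likelihood test, and a gene was called at a Benjamini-Hochberg adjusted p under 0.05 over all 16737 rows. Replicates 1 and 2 of each group were one batch by the labels and replicate 3 another. The summed level of 10 brown adipocyte markers was 6744 to 8362 CPM on NCD at room temperature, 20511 to 23969 on NCD in the cold, 8892 to 11131 on HFD at room temperature and 16192 to 19672 on HFD in the cold. Skeletal muscle transcripts varied far more within groups. The sum of 16 muscle markers ran from 5819 to 38911 CPM on NCD at room temperature, 2335 to 22594 on NCD in the cold, 4609 to 66058 on HFD at room temperature and 1326 to 11586 on HFD in the cold. Replicate 2 was the library richest in muscle transcripts in both NCD groups, and replicate 3 in both HFD groups. Sums of the other lists were 445 to 996 CPM for 4 endothelial markers, 82.9 to 249 for 6 macrophage, 793 to 1773 for 5 erythroid, 85.5 to 274 for 3 Schwann cell, 7.69 to 17.0 for 4 lymphocyte and 0.116 to 11.1 for 2 neutrophil markers. In bulk tissue, fewer cells of a type and less RNA per cell cannot be told apart.

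In NCD-fed mice, Hk1, Pfkl, Pfkp, Tpi1 and Pgam1 were higher in the cold than at room temperature, with a 2.35-fold rise of Pfkfb3, while most members of the same steps were not called. These were 1 of 2 hexokinases, 2 of 5 rows of the hexose phosphate steps, 1 of 4 fructose 2,6-bisphosphate enzymes and 2 of 9 rows of the triose steps. HFD-fed mice in the cold had lower transcripts for the pentose phosphate enzymes, the pyruvate carrier, all 4 PDH subunits listed and the kinase Pdk1 than NCD-fed mice in the cold, with Tkt at 0.217 of its NCD level. Hk1 rose with cold on both diets. Slc2a4, the insulin-responsive transporter, was lower on HFD in the cold, and at room temperature its adjusted p lay near the threshold.

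Cold on NCD called 8 of 43 rows higher (Hk1, Pfkl, Pfkp, Pfkfb3, Tpi1, Pgam1, Ldhb and Pdp2) and 0 lower, while 4.74% of all rows were called higher and 2.68% lower. The median log2 fold change was 0.17 over the 43 rows and -0.01 over all rows, and 15 of the 43 had an unadjusted p under 0.05, against 21.9% of all rows. Pfkfb3 and Pdp2 were called in each of 12 fits that left out 1 library, Pfkp in 11, Hk1 and Pfkl in 8, Pgam1 in 4, and Tpi1 and Ldhb in 2. The number called was 5, 2 and 3 without NCD room temperature replicates 1, 2 and 3, 5, 4 and 3 without NCD cold replicates 1, 2 and 3, and 5 without HFD room temperature replicate 2. Without the 4 libraries richest in muscle transcripts, 1 of each group and chosen after seeing the data, it was 2. Same-numbered libraries of a diet deviated together, and a fit blocked by number within each diet also called Pfkfb4 (log2 fold change -0.76, adjusted p = 0.0153) and Pdk4 (1.28, adjusted p = 0.0429).

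Cold on HFD called 5 rows higher (Slc2a1, Hk1, Pfkp, Fbp2 and Pdp2) and 7 lower (Eno1, Mpc1, Pdha1, Pdhb, Pdk1, Tkt and Taldo1), against 6.90% of all rows called higher and 4.57% lower. The median was -0.03 over the 43 rows and -0.04 over all rows. Slc2a1, Hk1, Pdhb, Pdk1, Tkt and Taldo1 were called in all 12 fits that left out 1 library, Pfkp in 11, and the other 5 in 8 or 9. The number called was 7 without HFD room temperature replicate 1 and 8 without the 4 libraries richest in muscle transcripts, where Hk1, Eno1, Mpc1, Pdha1 and Pdp2 lost their call. In the blocked fit, Hk2 (-0.62, adjusted p = 0.028), Pgd (-0.54, adjusted p = 0.0486) and Pfkm (-0.94, adjusted p = 0.00633) also passed as lower. Pfkm followed the muscle content of a library, and the part of that content in its difference was not tested.

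HFD at room temperature called 0 rows higher and 3 lower (Slc2a4, G6pdx and Mpc1), against 1.01% and 1.15% of all rows. Scaling by total counts alone, tried after seeing the data, gave 1 higher (Hk1) and 2 lower (G6pdx and Mpc1). DESeq2's Wald test also called Hk1 higher, and Hk2, Gpi1, Pfkfb4, Aldoa, Aldoc, Gapdh, Pdk1, Pgd, Tkt and Taldo1 lower. The share of all rows that it called there is not given here. The fold change was negative for 31 of the 43 rows, with a median of -0.31 against 0.03 over all rows. The edgeR count of 3 depended on the libraries: it was 0 without any one of NCD room temperature replicates 1, 2 and 3 or HFD room temperature replicate 2, and 1 without HFD room temperature replicate 3 or HFD cold replicate 3. Without the 4 libraries richest in muscle transcripts it was 0.

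HFD in the cold gave the most calls, with 1 row higher (Hk1) and 18 lower, against 2.23% and 3.07% of all rows. The lower rows were Slc2a4, Hk2, Gpi1, Aldoa, Eno1, Pkm, Ldha, Mpc1, Mpc2, Pdha1, Pdhb, Dlat, Pdhx, Pdk1, G6pdx, Pgd, Tkt and Taldo1. The fold change was negative for 38 of the 43 rows, with a median of -0.53 against 0.02 over all rows. Scaling by total counts alone raised the median of all rows by 0.30, and the split then was 3 higher and 13 lower: Gpi1, Aldoa, Pkm, Pdhx and G6pdx lost their call, and Slc2a1 and Pdk3 gained one. Slc2a4, Hk2, Eno1, Mpc1, Pdhb, Pdk1, Pgd, Tkt and Taldo1 were called in all 12 fits that left out 1 library, whereas Gpi1 was called in 3, G6pdx in 4, Pkm in 5, Pdhx in 6, Aldoa and Mpc2 in 8, and Hk1, Ldha, Pdha1 and Dlat in 10. The count was 12 without NCD cold replicate 3 and 10 without HFD cold replicate 1 or 3. Without the 4 libraries richest in muscle transcripts, 11 rows remained lower, namely Hk2, Eno1, Mpc1, Pdha1, Pdhb, Dlat, Pdhx, Pdk1, Pgd, Tkt and Taldo1. The brown adipocyte marker sum was also lower on HFD than on NCD in the cold. Most of it was Ucp1, at a mean of 16357 CPM on NCD and 13323 on HFD in the cold (log2 fold change -0.30 ± 0.17, adjusted p = 0.328). None of the 10 markers was called there, and Dio2 (0.34 ± 0.27) and Prdm16 (0.10 ± 0.35) differed the other way. The macrophage marker sum was 113.6 to 249 CPM on HFD and 82.9 to 111.6 on NCD in the cold, and 2 of the 6 macrophage markers were called higher there, Itgam (log2 fold change 1.19 ± 0.30, adjusted p = 0.0452) and Mrc1 (log2 fold change 1.10 ± 0.29, adjusted p = 0.0497), with Cd68 at 1.64 ± 0.45 (adjusted p = 0.0569). Cd68 also rose with cold on HFD (log2 fold change 1.72 ± 0.45, adjusted p = 0.0319). The part of either cell type in these differences was not tested. Within the batch of replicates 1 and 2 alone, the 4 contrasts called 1, 1, 0 and 0 rows, with batch as a term they called 10, 12, 4 and 20, and the other batch holds 1 library a group.

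Whether any member was called for an interaction depended on the tool. The interaction of diet and cold called 0 of 43 rows by edgeR's quasi-likelihood test (0% of all rows, smallest adjusted p = 0.397), with 12 rows at an unadjusted p under 0.05 against 6.52% of all rows. DESeq2's Wald test called 2, Pfkfb3 and Pdk1, against 0.393% of all rows with an adjusted p. The cold contrasts on the 2 diets and the HFD contrasts at the 2 temperatures share libraries with each other. Hk1, Pfkp and Pdp2 were called for cold on both diets, and Slc2a4, G6pdx and Mpc1 for HFD at both temperatures. In all, 28 rows were called in at least 1 of the 4 contrasts and 15 in none. The share of all rows called in at least 1 of the 4 was not computed, so this count has no background to be read against.

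**Figure D1:**
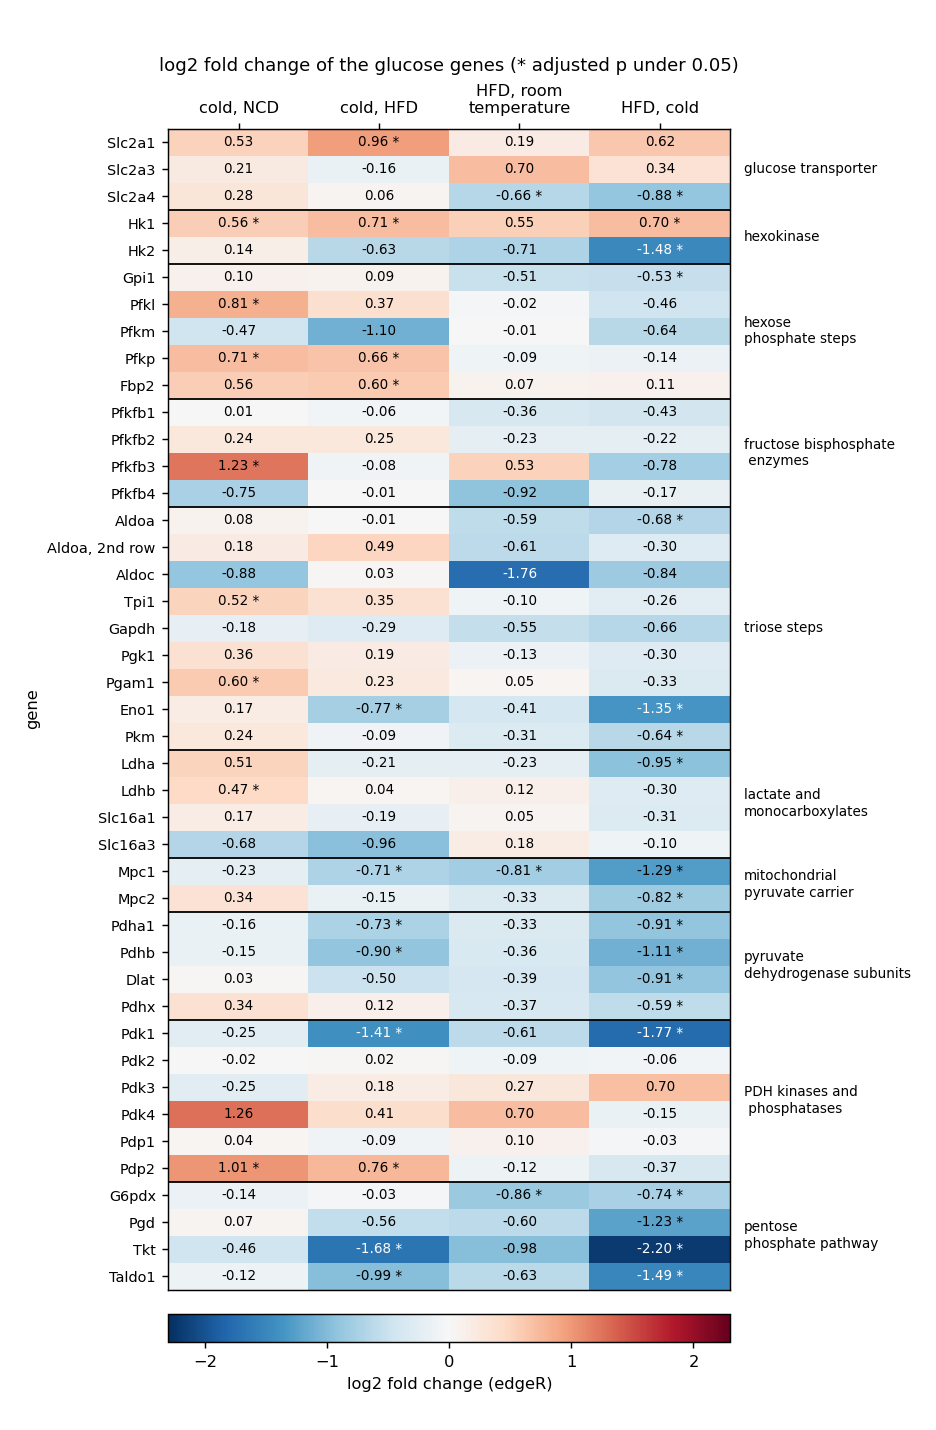
Log2 fold changes of the 43 rows (vertical, grouped by role) in the 4 contrasts (horizontal), with an asterisk for an adjusted p under 0.05. The column for HFD in the cold is mostly blue (lower on HFD), with 18 rows called lower, and the column for cold on NCD holds 8 called rows, all of them red.

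Promoter windows are shown for 4 members that moved most within their role, Pfkfb3 in the cold and Hk2, Pdk1 and Tkt on HFD in the cold, since genes of glycolysis are textbook targets of hypoxia-inducible factors and of carbohydrate-responsive E-box factors. They were chosen after their values were seen. RefSeq on GRCm38.p6 gave windows of 250 bases before to 50 bases after a transcript start for 39 of the 42 symbols, Slc2a4, Slc2a3 and Pdp1 being the ones without a match. Capitals mark ACGTG or GCGTG, the core letters of the hypoxia response element, on either strand. The E-box CACGTG contains ACGTG. Each sequence runs 5′ to 3′ on the strand of the gene, and where a gene has several windows the one listed first is shown.
Pfkfb3, chr2:11553880-11554179, minus strand: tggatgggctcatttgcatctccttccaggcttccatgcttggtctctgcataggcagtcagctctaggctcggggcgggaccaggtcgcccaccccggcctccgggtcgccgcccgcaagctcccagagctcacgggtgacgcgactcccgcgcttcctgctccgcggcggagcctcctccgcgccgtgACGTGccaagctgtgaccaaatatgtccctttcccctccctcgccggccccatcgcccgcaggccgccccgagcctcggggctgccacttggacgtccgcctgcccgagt
Hk2, chr6:82774405-82774704, minus strand: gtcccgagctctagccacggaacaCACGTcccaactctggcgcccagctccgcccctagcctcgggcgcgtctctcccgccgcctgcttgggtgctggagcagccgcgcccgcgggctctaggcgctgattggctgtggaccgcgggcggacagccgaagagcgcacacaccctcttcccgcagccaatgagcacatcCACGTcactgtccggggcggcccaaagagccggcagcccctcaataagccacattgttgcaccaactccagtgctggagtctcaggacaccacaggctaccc
Pdk1, chr2:71872974-71873273, plus strand: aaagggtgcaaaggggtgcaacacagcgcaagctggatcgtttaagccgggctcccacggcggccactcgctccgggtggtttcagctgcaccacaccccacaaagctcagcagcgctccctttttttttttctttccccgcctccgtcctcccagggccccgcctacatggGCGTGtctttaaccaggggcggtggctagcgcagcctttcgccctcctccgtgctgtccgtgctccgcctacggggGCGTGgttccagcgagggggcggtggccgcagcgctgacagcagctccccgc
Tkt, chr14:30548881-30549180, plus strand: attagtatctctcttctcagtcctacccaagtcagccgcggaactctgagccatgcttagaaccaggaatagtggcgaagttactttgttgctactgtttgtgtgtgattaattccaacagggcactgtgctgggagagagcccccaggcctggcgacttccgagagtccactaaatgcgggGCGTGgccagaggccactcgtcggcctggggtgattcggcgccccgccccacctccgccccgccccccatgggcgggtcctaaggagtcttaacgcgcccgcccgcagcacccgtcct
The window of Pfkfb3 held 1 ACGTG, that of Hk2 held 2 ACGTG, that of Pdk1 held 2 GCGTG and that of Tkt held 1 GCGTG, and none of these 4 windows held CACGTG. The other window of Pfkfb3, chr2:11502041-11502340, held 1 CACGTG, whose strands give its 2 matches of ACGTG, and 2 GCGTG, and the other window of Pdk1 held none of these. At least 1 window held GCGTG in 28 of the 39 members (35.1% of all 27025 genes with a window), ACGTG in 21 (21.8%) and CACGTG in 8 (8.09%). Members had more windows per gene, with 60 for the 39, than all genes, with 32851 for 27025. Per window, GCGTG was in 56.7% of member windows (32.4% of all), ACGTG in 41.7% (19.6%) and CACGTG in 13.3% (7.15%). The background took in genes whether or not they passed the filter on low counts. Each motif contains the letters CG, and base composition was not matched. These are matches of letters, and the presence of a factor there was not measured.

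Among the glucose transporters, Slc2a4 (GLUT4) was by far the most abundant. Per length, it made up 98.8 ± 0.0564% (SD, n = 3) of the summed level of Slc2a1, Slc2a3 and Slc2a4 on NCD at room temperature and 96.1 ± 1.41% on HFD in the cold. Slc2a4 was at 612, 593 and 535 CPM on NCD at room temperature, 625, 706 and 784 on NCD in the cold, 409, 370.2 and 322 on HFD at room temperature and 311, 434 and 402 on HFD in the cold. Every HFD library lay below every NCD library at either temperature. The log2 fold change of HFD was -0.66 ± 0.15 at room temperature (adjusted p = 0.046) and -0.88 ± 0.15 in the cold (adjusted p = 0.00868), while that of cold was 0.28 ± 0.15 on NCD and 0.06 ± 0.15 on HFD, neither called. At room temperature the call of Slc2a4 was lost with batch as a term, with the replicate block and in 7 of the 12 fits that left out 1 library, at log2 fold changes of -0.78 to -0.57 over those 12.

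Slc2a1 (GLUT1), the basal transporter, was low throughout, at 6.84, 6.39 and 4.97 CPM on NCD at room temperature, 8.08, 10.7 and 7.43 on NCD in the cold, 5.99, 7.21 and 7.48 on HFD at room temperature and 16.2, 11.9 and 12.2 on HFD in the cold. The 3 libraries on HFD in the cold were the highest of the 12. Slc2a1 rose 1.94-fold with cold on HFD (log2 fold change 0.96 ± 0.19, adjusted p = 0.00991). On NCD its difference was 0.53 ± 0.20 log2 (adjusted p = 0.134). Slc2a3, the transporter of neurons and leukocytes, stayed between 2.05 and 4.86 CPM and was called in no contrast.

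The hexokinases differed in opposite directions between the diets, and both differences were called in the cold. Hk1, the widely expressed isoenzyme, was at 65.1, 53.5 and 54.2 CPM on NCD at room temperature, 75.3, 85.2 and 93.7 on NCD in the cold, 87.8, 84.8 and 80.0 on HFD at room temperature and 153, 118 and 143 on HFD in the cold. All 3 cold libraries exceeded all 3 room temperature libraries of the same diet. Hk1 rose with cold by 0.56 ± 0.13 on NCD (adjusted p = 0.0224) and by 0.71 ± 0.13 on HFD (adjusted p = 0.00557). It was higher on HFD in the cold (log2 fold change 0.70 ± 0.13, adjusted p = 0.0116). At room temperature its HFD difference was 0.55 ± 0.13 (adjusted p = 0.0504), with every HFD library above every NCD library, and it passed by DESeq2 (adjusted p = 0.0106). The sum of the 4 endothelial markers was 445 to 564 CPM on NCD at room temperature and 646 to 744 on NCD in the cold. On HFD it was 642 to 871 and 867 to 996, ranges that overlap. For cold, Pecam1 on NCD was the only call among them (log2 fold change 0.58 ± 0.11, adjusted p = 0.0101), and Tie1 differed by 0.04 ± 0.14 there. For HFD, Pecam1 at room temperature was the only call (log2 fold change 0.72 ± 0.11, adjusted p = 0.00786). All 4 markers were higher on HFD at both temperatures, by 0.34 to 0.72 log2. The part of endothelial cells in the levels of Hk1 and Slc2a1 was not tested.

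Hk2, the insulin-regulated isoenzyme of muscle and fat, was at 741, 1049 and 1036 CPM on NCD at room temperature, 913, 840.2 and 1353 on NCD in the cold, 697, 505 and 524 on HFD at room temperature and 398, 332 and 384 on HFD in the cold. The HFD libraries in the cold lay well under all NCD libraries. Hk2 fell on HFD in the cold to 0.359 of the NCD level (log2 fold change -1.48 ± 0.21, adjusted p = 0.00381), and the differences by cold on HFD (-0.63 ± 0.21) and by HFD at room temperature (-0.71 ± 0.21) were not called. Per length, Hk1 made up 4.26 ± 1.33% of both hexokinases on NCD at room temperature, 5.57 ± 1.01% on NCD in the cold, 9.42 ± 1.22% on HFD at room temperature and 20.6 ± 0.687% on HFD in the cold (SD, n = 3). Hk2 was the more abundant transcript in all 4 groups, by mean level per length.

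Phosphofructokinase commits glucose to glycolysis, and 3 genes encode its subunits. Pfkl, the liver-type subunit and the most abundant per length, was at 1169, 988 and 1205 CPM on NCD at room temperature, 1724, 1707 and 2464 on NCD in the cold, 1086, 1143 and 1087 on HFD at room temperature and 1074, 1778 and 1444 on HFD in the cold. It rose 1.75-fold with cold on NCD (log2 fold change 0.81 ± 0.19, adjusted p = 0.0282), and on HFD the difference was 0.37 ± 0.19, not called, with replicate 1 in the cold lying below the 3 room temperature libraries. Pfkp, the platelet-type subunit, was at 254, 198 and 247 CPM on NCD at room temperature, 412, 347 and 383 on NCD in the cold, 219, 205 and 231 on HFD at room temperature and 395, 355 and 286 on HFD in the cold. It rose with cold on both diets, by 0.71 ± 0.14 log2 on NCD (adjusted p = 0.0126) and 0.66 ± 0.14 on HFD (adjusted p = 0.0126), and the difference between these effects was -0.05 (95% interval -0.48 to 0.38). Pfkm, the muscle-type subunit, is described with the muscle markers.

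Of the other rows of the hexose phosphate steps, Gpi1 and Fbp2 were called in 1 contrast each. Gpi1, which converts glucose 6-phosphate to fructose 6-phosphate, was at 1043, 961 and 911 CPM on NCD at room temperature, 898, 1097 and 1135 on NCD in the cold, 768, 651 and 628 on HFD at room temperature and 668, 709 and 794 on HFD in the cold. It was lower on HFD in the cold (log2 fold change -0.53 ± 0.13, adjusted p = 0.0408). At room temperature its HFD difference was -0.51 ± 0.13 (adjusted p = 0.0686), and it passed by DESeq2 (adjusted p = 0.00313). Fbp2, the muscle-type fructose bisphosphatase that runs the reverse of the phosphofructokinase step, was at 36.1, 37.8 and 32.9 CPM on NCD at room temperature, 48.7, 56.8 and 52.4 on NCD in the cold, 38.7, 33.4 and 40.2 on HFD at room temperature and 52.4, 72.0 and 45.7 on HFD in the cold. The cold libraries exceeded the room temperature libraries on both diets, and the rise was called on HFD (log2 fold change 0.60 ± 0.15, adjusted p = 0.0308) while on NCD it was 0.56 ± 0.16 with an adjusted p of 0.0504.

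Pfkfb3 had the largest called rise among the members. It encodes an isoform of the bifunctional enzyme that makes fructose 2,6-bisphosphate, the strongest activator of phosphofructokinase. Pfkfb3 was at 352, 275 and 377 CPM on NCD at room temperature, 968, 549 and 839.8 on NCD in the cold, 471, 544 and 435 on HFD at room temperature and 393, 573 and 409 on HFD in the cold. All NCD libraries in the cold exceeded all NCD libraries at room temperature, whereas the HFD groups overlapped. The log2 fold change of cold was 1.23 ± 0.22 on NCD (adjusted p = 0.00851) and -0.08 ± 0.22 on HFD. The difference between these cold effects was -1.31 (95% interval -1.99 to -0.63), with an adjusted p of 0.475 by edgeR and 0.0142 by DESeq2. Per length, Pfkfb3 made up 79.3 ± 3.22% of the 4 Pfkfb transcripts on NCD at room temperature and 90.0 ± 3.27% on NCD in the cold. Pfkfb1, Pfkfb2 and Pfkfb4 lay between 4.67 and 26.5 CPM and were not called, Pfkfb4 being at 10.9, 12.8 and 13.3 on NCD at room temperature and 6.65, 6.53 and 8.78 on NCD in the cold.

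**Figure D2:**
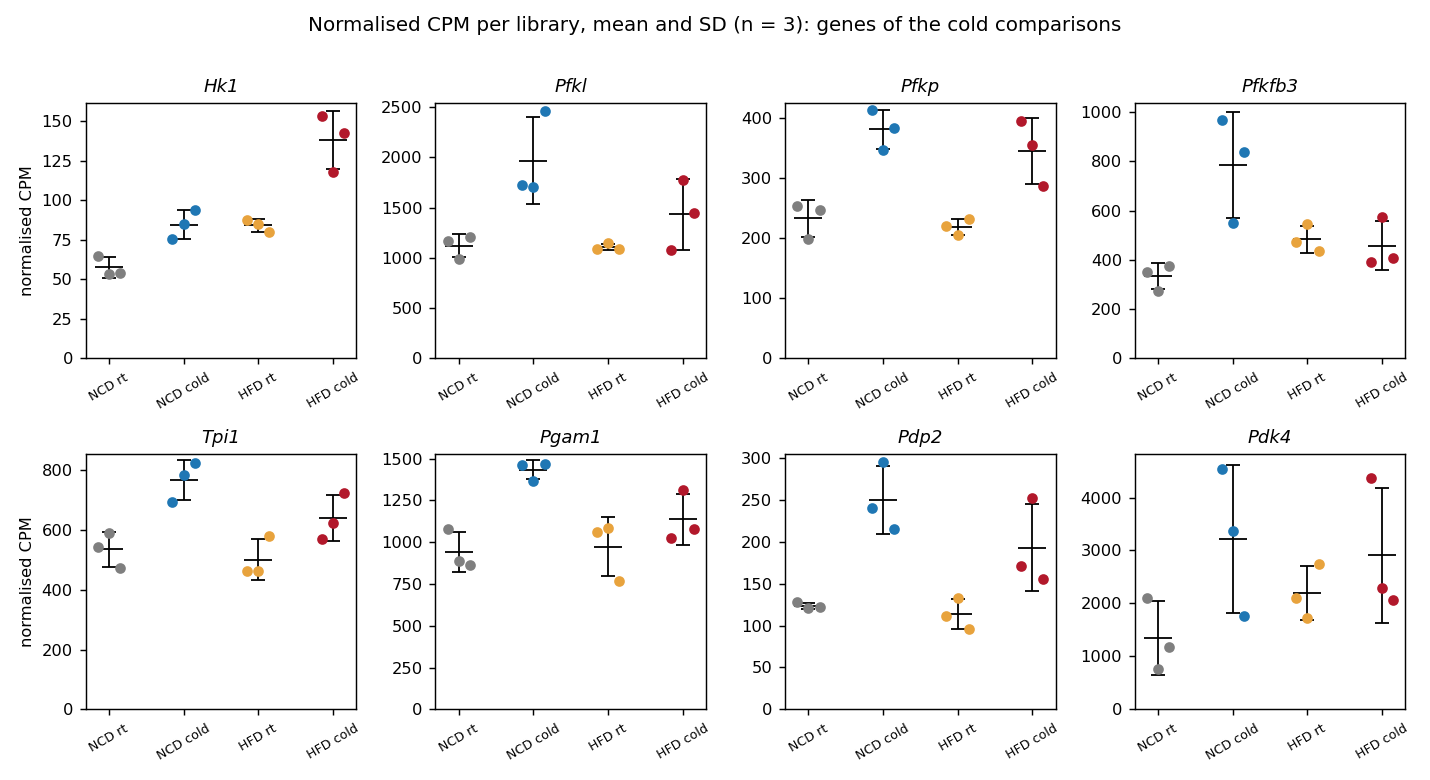
Normalised CPM of 8 genes (vertical, from 0) in the 4 groups (horizontal), with a point per library and bars for the mean and SD (n = 3). Pfkfb3 and Pdp2 stood highest on NCD in the cold, Hk1 on HFD in the cold, and the libraries of Pdk4 were spread widely, from 756 to 2109 on NCD at room temperature.

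The lower part of glycolysis rose in the cold on NCD at the triose phosphate isomerase and phosphoglycerate mutase steps. Tpi1, which interconverts the triose phosphates, was at 543, 590.3 and 474 CPM on NCD at room temperature, 694, 785 and 823 on NCD in the cold, 462, 461 and 580.0 on HFD at room temperature and 571, 625 and 723 on HFD in the cold. Pgam1, the non-muscle phosphoglycerate mutase, was at 1078, 889 and 861 CPM on NCD at room temperature, 1462, 1367 and 1470.5 on NCD in the cold, 1064, 1084 and 769.9 on HFD at room temperature and 1023, 1311 and 1079.7 on HFD in the cold. On NCD the cold libraries of both genes lay above the room temperature libraries, with rises of 0.52 ± 0.14 log2 for Tpi1 (adjusted p = 0.0454) and 0.60 ± 0.16 for Pgam1 (adjusted p = 0.0395). On HFD the cold differences were 0.35 ± 0.14 log2 and 0.23 ± 0.16, not called.

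Aldoa, Eno1 and Pkm, among the most abundant glycolytic transcripts per length, were lower on HFD in the cold. Aldoa, the main aldolase and the highest member per length with 1978 CPM per kb on NCD at room temperature, was at 5834, 5690.0 and 5752 CPM on NCD at room temperature, 5567, 5824 and 6907 on NCD in the cold, 3728, 3293 and 4483 on HFD at room temperature and 3969, 3397 and 4061 on HFD in the cold. Eno1, the ubiquitous enolase, was at 5041, 3943 and 4149 CPM on NCD at room temperature, 5383, 4032 and 5391 on NCD in the cold, 3933, 3246 and 2721 on HFD at room temperature and 1552, 2344 and 1901 on HFD in the cold. Pkm, the pyruvate kinase of most tissues, was at 4834, 3764 and 3817 CPM on NCD at room temperature, 4944, 4373 and 5376 on NCD in the cold, 3503, 3332 and 3184 on HFD at room temperature and 2587, 3641 and 3193 on HFD in the cold. In the cold, HFD libraries of these 3 genes lay below all NCD libraries. The differences were -0.68 ± 0.14 log2 for Aldoa (adjusted p = 0.0253), -1.35 ± 0.20 for Eno1 (adjusted p = 0.00438) and -0.64 ± 0.16 for Pkm (adjusted p = 0.0408). At room temperature they were -0.59 ± 0.14 for Aldoa (adjusted p = 0.0619), -0.41 ± 0.20 for Eno1 and -0.31 ± 0.16 for Pkm, not called. Aldoa passed there by DESeq2 (adjusted p = 0.000429) and with batch as a term (adjusted p = 0.0391). Eno1 also fell with cold on HFD (log2 fold change -0.77 ± 0.20, adjusted p = 0.0287), and on NCD its cold difference was 0.17 ± 0.20.

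Gapdh and Pgk1, the steps between Tpi1 and Pgam1, were called in none of the 4 contrasts by edgeR with 4 group means. Gapdh was at 5122, 4871 and 3314 CPM on NCD at room temperature, 3955, 4404 and 3355 on NCD in the cold, 3539.6, 2942 and 2587 on HFD at room temperature and 2467, 2718 and 2229 on HFD in the cold, with a difference of -0.66 ± 0.19 log2 on HFD in the cold (adjusted p = 0.0662). That difference passed with batch as a term (adjusted p = 0.0194) and by DESeq2 (adjusted p = 0.00765), which also called Gapdh lower on HFD at room temperature (adjusted p = 0.0351). Its 3 HFD libraries in the cold lay below all NCD libraries, and they overlapped the HFD libraries at room temperature. Pgk1 ranged from 788 to 1328 CPM. Aldoc, the brain-type aldolase, never exceeded 1.80 CPM, and the second row with the symbol Aldoa, listed under another Ensembl identifier, never exceeded 1.49 CPM.

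The lactate dehydrogenase transcripts held a smaller share of Ldha on HFD, a share that was not tested. Ldha, whose subunit favours lactate formation, was at 1702, 1589.6 and 1641 CPM on NCD at room temperature, 2260.1, 2069 and 2701 on NCD in the cold, 1447, 1349.6 and 1418 on HFD at room temperature and 848, 1496 and 1295 on HFD in the cold. Ldhb, whose subunit favours lactate use, was at 479, 407 and 431 CPM on NCD at room temperature, 617, 552 and 649 on NCD in the cold, 477, 485 and 469 on HFD at room temperature and 416, 564 and 495 on HFD in the cold. In the cold, Ldha was lower on HFD (log2 fold change -0.95 ± 0.18, adjusted p = 0.0165), while Ldhb differed by -0.30 ± 0.12, not called. On NCD, Ldhb rose with cold (log2 fold change 0.47 ± 0.12, adjusted p = 0.0445). Ldha differed there by 0.51 ± 0.18 (adjusted p = 0.12), and passed with only the 6 libraries compared (adjusted p = 0.0472). The share of Ldha in both per length was 64.0 ± 1.12%, 64.6 ± 1.56%, 58.3 ± 1.18% and 53.4 ± 3.69% in the 4 groups in the same order (SD, n = 3), and every HFD library had a smaller Ldha share than every NCD library. Slc16a1 (MCT1), the main monocarboxylate transporter here, ranged from 371 to 790 CPM and was called in no contrast, with replicate 1 the highest in each group.

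**Figure D3:**
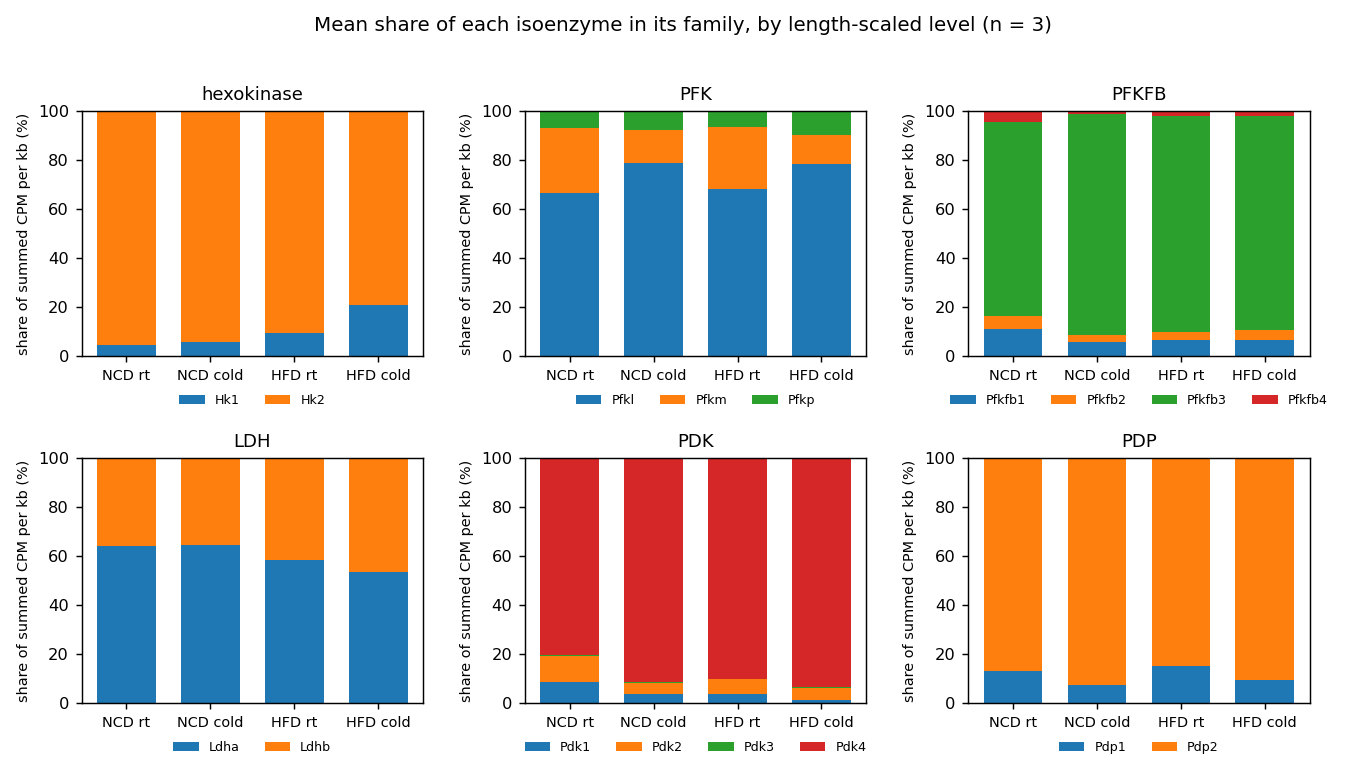
Mean share of each isoenzyme in the summed level per length of its family (vertical, percent of CPM per kb) in the 4 groups (horizontal), for 6 families. Hk1 grows from 4.26% of the hexokinases on NCD at room temperature to 20.6% on HFD in the cold, Ldha shrinks from 64.0% to 53.4%, and Pdk4 forms most of the PDH kinase transcripts throughout.

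Both subunits of the mitochondrial pyruvate carrier were lower on HFD in the cold. Mpc1 was at 1823, 1399 and 1468 CPM on NCD at room temperature, 1446, 1152 and 1415 on NCD in the cold, 1054, 884 and 742 on HFD at room temperature and 458, 641 and 537 on HFD in the cold. Mpc2 was at 607, 555 and 539 CPM on NCD at room temperature, 737, 646 and 768 on NCD in the cold, 516, 465 and 374 on HFD at room temperature and 318, 498 and 405 on HFD in the cold. The HFD libraries of Mpc1 lay below all NCD libraries at both temperatures, and those on HFD in the cold were the lowest of all. Mpc1 fell on HFD at room temperature (log2 fold change -0.81 ± 0.18, adjusted p = 0.0412) and in the cold (log2 fold change -1.29 ± 0.18, adjusted p = 0.00294), and with cold on HFD (log2 fold change -0.71 ± 0.18, adjusted p = 0.0244). Mpc2 fell on HFD in the cold (log2 fold change -0.82 ± 0.17, adjusted p = 0.0214).

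The PDH subunits were lower on HFD in the cold too. Pdha1 and Pdhb encode the E1 subunits that decarboxylate pyruvate. Pdha1 was at 3150.2, 2604 and 2888 CPM on NCD at room temperature, 2759, 2136 and 2866 on NCD in the cold, 2436, 2281 and 2163 on HFD at room temperature and 1258, 1691 and 1191 on HFD in the cold. Pdhb was at 1280.1, 968 and 1190.1 CPM on NCD at room temperature, 1147, 792 and 1163 on NCD in the cold, 1022, 859 and 806 on HFD at room temperature and 409, 549 and 478 on HFD in the cold. For both genes the 3 libraries on HFD in the cold were the lowest of the 12. Cold on HFD gave -0.73 ± 0.16 log2 for Pdha1 (adjusted p = 0.0159) and -0.90 ± 0.18 for Pdhb (adjusted p = 0.00961), and HFD in the cold gave -0.91 ± 0.16 (adjusted p = 0.012) and -1.11 ± 0.18 (adjusted p = 0.00758). Cold on NCD gave -0.16 ± 0.16 log2 and -0.15 ± 0.18, not called.

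Dlat, the E2 core, and Pdhx, a binding subunit of the complex, were lower on HFD in the cold as well. Dlat was at 1263, 1055 and 1095 CPM on NCD at room temperature, 1264, 1011 and 1204 on NCD in the cold, 996, 892 and 718 on HFD at room temperature and 526, 726 and 594 on HFD in the cold. Pdhx was at 241, 193 and 223 CPM on NCD at room temperature, 278, 246 and 310.3 on NCD in the cold, 179, 176 and 155 on HFD at room temperature and 152, 196 and 205 on HFD in the cold. The differences were -0.91 ± 0.16 log2 for Dlat (adjusted p = 0.011) and -0.59 ± 0.14 for Pdhx (adjusted p = 0.0374). In the cold the HFD libraries of both genes lay below the NCD libraries.

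Of the 4 PDH kinases, 1 was called in the filtered edgeR fit of 4 group means with TMM factors. Pdk4 passed for cold on NCD with either block and without the filter on low counts. Pdk1, which inactivates PDH and is a known target of hypoxia-inducible factors, was at 306, 263 and 262 CPM on NCD at room temperature, 248, 186 and 263 on NCD in the cold, 212, 172 and 162 on HFD at room temperature and 54.8, 83.8 and 66.1 on HFD in the cold. The 3 libraries on HFD in the cold lay below all others, the highest of them at 83.8 and the lowest of the others at 162. Pdk1 fell with cold on HFD to 0.375 (log2 fold change -1.41 ± 0.18, adjusted p = 0.00112) and on HFD in the cold to 0.294 of the level compared with (log2 fold change -1.77 ± 0.18, adjusted p = 0.000836). The difference between the cold effects on both diets was -1.16 (95% interval -1.71 to -0.61), with an adjusted p of 0.397 by edgeR and 0.0111 by DESeq2.

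Pdk4, the kinase linked to fasting and fatty acid use, was the dominant kinase transcript, with 80.5 ± 8.82% of the 4 kinases per length on NCD at room temperature and 93.6 ± 2.91% on HFD in the cold. Pdk4 was at 2109, 756 and 1173 CPM on NCD at room temperature, 4543, 3365 and 1754 on NCD in the cold, 2097, 1734 and 2750.2 on HFD at room temperature and 4363, 2295 and 2061 on HFD in the cold. The NCD groups overlapped, since cold replicate 3 lay below room temperature replicate 1, but each cold library on NCD lay above the room temperature library of the same number. The cold difference on NCD was 1.26 ± 0.43 log2 with an adjusted p of 0.107, and in the fit blocked by number within diet it was 1.28 with an adjusted p of 0.0429. It was 1.31 with the replicate block (adjusted p = 0.0447) and 1.27 without the filter on low counts (adjusted p = 0.0303). Pdk2 ranged from 89.2 to 185 CPM and Pdk3 from 1.35 to 3.50. Pdk2 was not called, and Pdk3 passed only with total count scaling, for HFD in the cold (adjusted p = 0.0338).

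Of the PDH phosphatases, which reactivate the complex, Pdp2 rose with cold on both diets. It was at 128, 121 and 122 CPM on NCD at room temperature, 239.8, 294 and 215 on NCD in the cold, 112, 133 and 96.4 on HFD at room temperature and 171, 252 and 156 on HFD in the cold. The cold libraries lay above the room temperature libraries of the same diet. The rises were 1.01 ± 0.19 log2 on NCD (adjusted p = 0.00966) and 0.76 ± 0.19 on HFD (adjusted p = 0.024). Pdp1 stayed between 11.5 and 20.6 CPM.

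All 4 pentose phosphate genes were lower on HFD in the cold, with the lowest median log2 fold change of any role (-1.36). G6pdx, the NADPH-forming entry enzyme, was at 574, 449 and 412 CPM on NCD at room temperature, 483, 396 and 421 on NCD in the cold, 322, 265 and 206 on HFD at room temperature and 225, 295 and 259.7 on HFD in the cold. Pgd, the next NADPH-forming enzyme, was at 707, 598 and 555 CPM on NCD at room temperature, 837, 528 and 589.7 on NCD in the cold, 516, 364 and 350.1 on HFD at room temperature and 259.8, 298 and 276 on HFD in the cold. For both genes every HFD library lay below every NCD library. G6pdx differed on HFD by -0.86 ± 0.18 log2 at room temperature (adjusted p = 0.0379) and by -0.74 ± 0.18 in the cold (adjusted p = 0.0411), and Pgd by -1.23 ± 0.20 in the cold (adjusted p = 0.00664).

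Tkt, the transketolase of the non-oxidative branch, changed the most. Tkt was at 8010.0, 6002 and 6659 CPM on NCD at room temperature, 5789.8, 3582 and 5681 on NCD in the cold, 4396, 3219.7 and 2874 on HFD at room temperature and 726, 1357 and 1189.5 on HFD in the cold. Its 3 libraries on HFD in the cold did not reach the lowest value of any other group, 2874 CPM. Tkt fell with cold on HFD to 0.312 (log2 fold change -1.68 ± 0.27, adjusted p = 0.00341) and on HFD in the cold to 0.217 (log2 fold change -2.20 ± 0.27, adjusted p = 0.00198), while cold on NCD gave -0.46 ± 0.26 and HFD at room temperature -0.98 ± 0.26 (adjusted p = 0.0851). Taldo1, the transaldolase of the same branch, was at 1346, 1019.7 and 1092 CPM on NCD at room temperature, 1125, 882 and 1171 on NCD in the cold, 867, 771 and 601 on HFD at room temperature and 309, 465 and 355 on HFD in the cold. It showed the same order of groups, with -0.99 ± 0.19 log2 for cold on HFD (adjusted p = 0.00892) and -1.49 ± 0.20 for HFD in the cold (adjusted p = 0.00245).

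**Figure D4:**
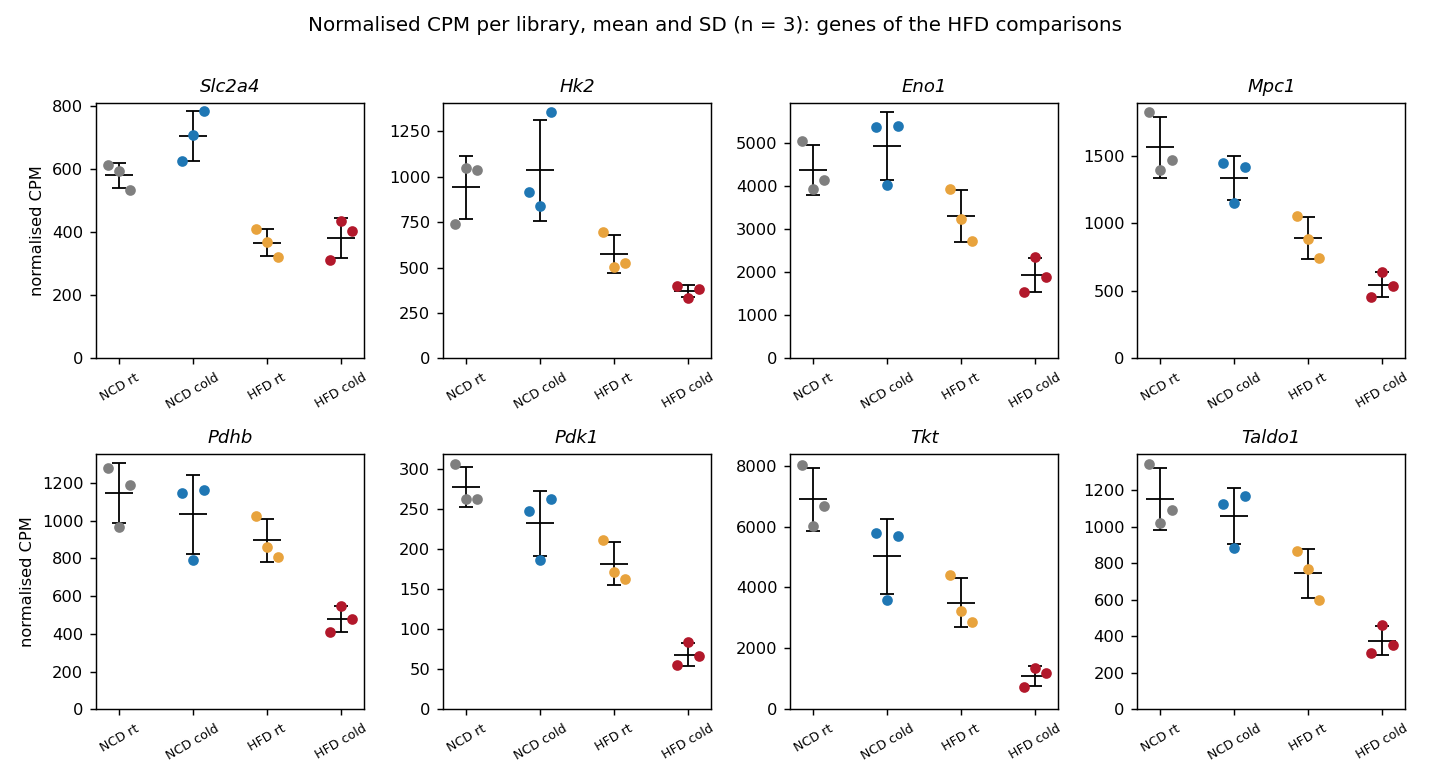
Normalised CPM of 8 genes (vertical, from 0) in the 4 groups (horizontal), with a point per library and bars for the mean and SD (n = 3). Slc2a4 is lower in both HFD groups, and Eno1, Mpc1, Pdhb, Pdk1, Tkt and Taldo1 are lowest on HFD in the cold, where Tkt lies between 726 and 1357.

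The muscle-type members Pfkm and Slc16a3 followed the muscle content of a library. The muscle score was the mean log2 CPM of the 16 muscle markers and ran from 5.33 to 10.6, and the slope of each gene on it was estimated beside the 4 group means. Among the members, 2 of 43 rows had a called positive slope and 0 a negative one, against 3.54% and 0.0956% of all rows. Pfkm was at 159.9, 376 and 154 CPM on NCD at room temperature, 114, 266 and 119 on NCD in the cold, 123, 115 and 448 on HFD at room temperature and 62.8, 82.6 and 174 on HFD in the cold. The highest library of each group was the one richest in muscle transcripts. Its slope was 0.48 ± 0.03 log2 units per unit of the score (adjusted p = 9.39e-07). Slc16a3 (MCT4), the lactate exporter of glycolytic muscle fibres, was at 1.56, 12.8 and 2.87 CPM on NCD at room temperature, 3.27, 5.94 and 1.63 on NCD in the cold, 2.06, 2.56 and 14.3 on HFD at room temperature and 2.84, 2.38 and 4.64 on HFD in the cold, with the highest value of each group again in that library. Its slope was 0.63 ± 0.10 (adjusted p = 0.00228).

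With all libraries in the edgeR fit of 4 group means, neither Pfkm nor Slc16a3 was called in any of the 4 contrasts. For cold on HFD, Pfkm differed by -1.10 ± 0.61 log2 (adjusted p = 0.266), and without the 4 libraries richest in muscle transcripts by -0.71 (adjusted p = 0.0417). It differed by -0.94 in the fit blocked by number within diet (adjusted p = 0.00633). The HFD muscle scores were 7.25, 7.34 and 10.6 at room temperature and 5.33, 5.81 and 8.69 in the cold. On NCD they were 7.78, 10.4 and 7.97 at room temperature and 6.76, 9.50 and 6.47 in the cold. Each cold library scored below the room temperature library of the same number. The part of muscle content in the Pfkm differences was not tested. Per length, Pfkm made up 40.9% of the phosphofructokinase transcripts in NCD room temperature replicate 2, against 19.8% and 18.8% in replicates 1 and 3, and 42.7% in HFD room temperature replicate 3 against 17.1% and 15.5%. The muscle-specific phosphoglycerate mutase Pgam2 and enolase Eno3, which are not members, had slopes of 1.00 ± 0.05 (adjusted p = 3.92e-08) and 0.92 ± 0.03 (adjusted p = 3.04e-09). By contrast, the slopes of Fbp2 (0.00 ± 0.04), Aldoa (0.03 ± 0.03), Pkm (-0.04 ± 0.04) and Ldha (-0.01 ± 0.05), which muscle also expresses, were not called. Without HFD cold replicate 1, 8 rows had a called slope, 2 positive and 6 negative.

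**Figure D5:**
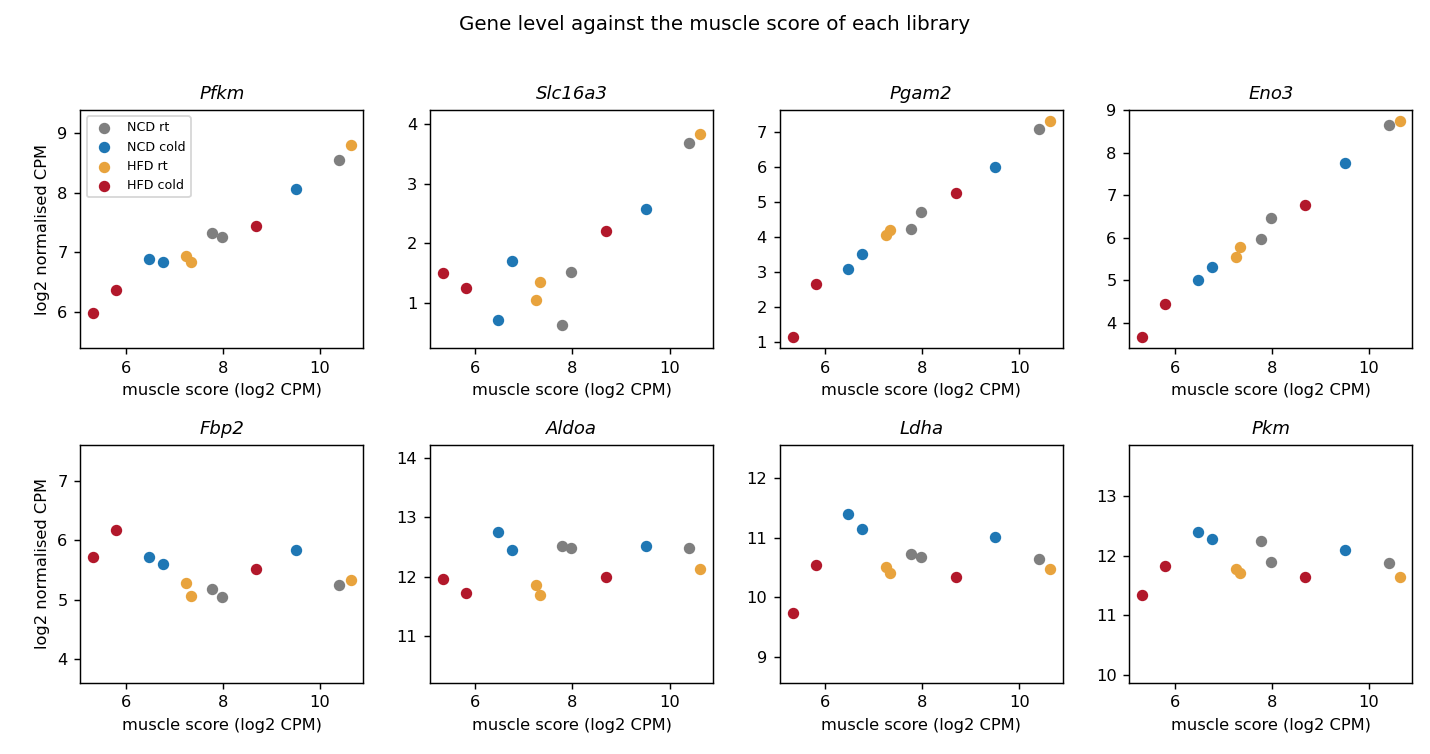
Log2 normalised CPM of 8 genes (vertical, range differing between panels and spanning at least 4 units) against the muscle score of each library (horizontal, log2 CPM), coloured by group. Pfkm, Slc16a3, Pgam2 and Eno3 climb with the score across all groups, with slopes of 0.48 to 1.00, whereas Fbp2, Aldoa, Ldha and Pkm show no such climb, with slopes of -0.04 to 0.03.

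Of 70 other genes of the same pathways, 66 were in the table and 53 were tested. Cold on NCD called 5 of the 53 higher and 3 lower, against 4.74% and 2.68% of all rows. Cold on HFD called 7 and 7 (6.90% and 4.57% of all rows). HFD at room temperature called 1 and 3 (1.01% and 1.15%), and HFD in the cold 1 and 8 (2.23% and 3.07%). Slc2a5, the fructose transporter, was at 84.5, 60.0 and 71.9 CPM on NCD at room temperature, 36.4, 13.9 and 37.8 on NCD in the cold, 38.7, 23.5 and 18.5 on HFD at room temperature and 0.585, 0.748 and 0.629 on HFD in the cold. It fell on HFD in the cold (log2 fold change -5.49 ± 0.45, adjusted p = 0.000295), the largest change of the 8 genes with the smallest adjusted p. Me1, the cytosolic NADPH-forming malic enzyme, was also lower on HFD in the cold (log2 fold change -2.09 ± 0.19, adjusted p = 0.000428). Mlxipl, the carbohydrate-response factor ChREBP, was at 0.5 of its NCD level there (adjusted p = 0.00593), and Gpd1, which links glycolysis to glycerol 3-phosphate, was lower as well (log2 fold change -1.34 ± 0.21, adjusted p = 0.00603). Bsg, the chaperone of the monocarboxylate transporters, and Tigar, a fructose 2,6-bisphosphatase, rose with cold on NCD (1.42 ± 0.21 log2 and 0.64 ± 0.12) and on HFD (1.00 ± 0.21 and 0.73 ± 0.12), with adjusted p-values of 0.0032, 0.00866, 0.0111 and 0.00322. Slc16a7 (MCT2) fell with cold on NCD (log2 fold change -1.78 ± 0.23, adjusted p = 0.00141) and on HFD (log2 fold change -1.82 ± 0.23, adjusted p = 0.00106). Egln1, the oxygen sensor that marks hypoxia-inducible factors for degradation, rose with cold on NCD (log2 fold change 1.32 ± 0.14, adjusted p = 0.000594) and with HFD at room temperature (log2 fold change 0.75 ± 0.14, adjusted p = 0.0202).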

How the data were processed

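Ribosomal RNA was removed from total RNA of 12 iBAT samples before paired-end sequencing. The authors quantified reads with salmon against GENCODE M22 and RNAcentral 5, and deposited estimated counts per gene as whole numbers, not normalised. Strand handling was not given in the sources used here. Salmon divides reads between near-identical transcripts, so genes with processed pseudogenes (Gapdh, Eno1, Pgam1, Tpi1) are less certain. Members, lists and tests were chosen with earlier results of these data known. Rows passed filterByExpr (minimum count 10), TMM and edgeR 4.0.16 (R 4.3.3) quasi-likelihood fits of 4 group means. Members called in these fits or by the muscle slope are given for every library. The 8 companions with the smallest adjusted p are named, and of them only Slc2a5 is given for every library. Lengths were union exons of GENCODE M21. For same-numbered room temperature and cold libraries, deviations from the group means correlated by 0.219 to 0.456 on NCD and 0.155 to 0.386 on HFD (3 pairs each), so cold contrasts were blocked by number within diet as an alternative. Where the pairing comes from is not stated. DESeq2 1.42.0, its size factors, no filter, batch, replicate block, muscle score, a minimum log2 fold change of 0.5, batch 1 alone, only the 6 libraries compared and each library left out were the other alternatives. Total count scaling and leaving out the 4 muscle-rich libraries were added after seeing the data. The steps were tested on simulated data.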

Additional observations from a re-analysis of the deposited data

How the results depend on the processing

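No called fold change changed sign under any alternative run. With batch 1 alone, which leaves 2 libraries a group, the calls were 1 for cold on NCD, 1 for cold on HFD, 0 for HFD at room temperature, 0 for HFD in the cold and 1 for the muscle slope, and the fewer libraries are part of that setting. With only the 6 libraries compared, the calls were 7 for cold on HFD, 0 for HFD at room temperature and 7 for HFD in the cold. Without the 4 libraries richest in muscle transcripts they were 2 for cold on NCD, 0 for HFD at room temperature and 11 for HFD in the cold. HFD at room temperature gave 14 calls by DESeq2, 5 with the replicate block, in which the numbers do not pair the diets, and 8 with the muscle score as a covariate, and the cause was not tested. DESeq2 called 2 members for the interaction, where edgeR called 0 with 12 at an unadjusted p under 0.05. Leaving out 1 library gave 2 to 8 calls for cold on NCD, 7 to 13 for cold on HFD, 0 to 4 for HFD at room temperature, 10 to 19 for HFD in the cold and 2 to 8 for the muscle slope. The block within diet gave 10 calls for cold on NCD and 15 for cold on HFD, and 0 for the interaction. It ended no call of a cold contrast.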
